A study of Mus musculus with 4 samples.

Results

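Mature miRNAs of the imprinted Dlk1-Dio3 region were followed in exosomes of the small intestinal epithelium and of serum. They were chosen by name, with earlier results of these data known, and are mmu-miR-127-3p, mmu-miR-379-5p, mmu-miR-411-5p, mmu-miR-382-5p and mmu-miR-154-5p. These 5 were among the 668 miRNAs counted in either source and the 316 counted in both.

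The Dlk1-Dio3 region is an imprinted domain: Dlk1, Rtl1 and Dio3 encode proteins from the paternally inherited chromosome, whereas its long noncoding RNAs and miRNAs are made from the maternally inherited one. In the mouse its miRNAs are known for high levels in embryo, placenta and brain, and maternal loss of the miR-379/miR-410 cluster disturbs metabolic adaptation of the newborn. The miR-127 hairpin lies on the opposite strand of Rtl1, a retrotransposon-derived gene needed in placenta, and miR-127 is known to repress it. A miRNA finds its target messages mainly through the seed, bases 2 to 8 counted from its 5′ end.

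The mature sequences are shown because their seeds say which of the 5 could read the same target sites. They were taken from RefSeq (GRCm38.p6), match the deposited sequences, and are written 5′ to 3′ with the seed in capitals.
mmu-miR-127-3p: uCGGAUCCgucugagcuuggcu
mmu-miR-379-5p: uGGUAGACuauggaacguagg
mmu-miR-411-5p: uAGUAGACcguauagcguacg
mmu-miR-382-5p: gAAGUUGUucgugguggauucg
mmu-miR-154-5p: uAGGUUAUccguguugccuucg
No pair shared a seed, and no other miRNA with a sequence in either table had any of the 5 seeds. The closest pair in the seed was miR-379-5p with miR-411-5p, which had 6 of 7 seed bases and 14 of 21 bases in common. Their only seed difference was G2A, with the miR-379-5p base first and positions counted from the 5′ end. The miR-382-5p and miR-154-5p sequences had 15 of 22 bases and 5 of 7 seed bases in common, with A3G and G7A in the seed (miR-382-5p base first). The remaining pairs had at most 3 of 7 seed bases in common.

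On chromosome 12 (GRCm38), all 5 hairpins lay on the plus strand between Dlk1 and Dio3, an interval with 58 annotated hairpins. Mir127 (chr12:109592846-109592915) lay within an exon of Rtl1, which is on the minus strand, 116 kb upstream of Mir379. Mir379 (chr12:109709060-109709125) and Mir411 (chr12:109710175-109710256) started 1.11 kb apart and overlapped no other annotated gene. Mir382 (chr12:109733771-109733846), 24.7 kb downstream of Mir379, lay in an exon of the noncoding gene Mirg. Mir154 (chr12:109738433-109738498), 29.4 kb downstream, lay in an intron of Mirg.

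The study asked how the miRNA cargo of small intestinal epithelial exosomes (SI-Exos) and of circulating exosomes differs between aged and young mice. Male C57BL/6J mice on standard chow, with no further treatment or allele in the labels, gave 4 small RNA libraries: 18m-SI-Exos and 3m-SI-Exos from the intestinal epithelium, and 18m-serum-exos and 3m-serum-exos from cardiac blood. Ages were 18 and 3 months, each condition had 1 library, and the sources used here do not say whether a library pooled several mice. None of the differences below therefore has a replicate check in these data. Intervals are exact 95% intervals that cover counting error only, since PCR reads without molecular identifiers are not independent molecules.

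The libraries held 71353 (18m-SI-Exos), 212215 (3m-SI-Exos), 778237 (18m-serum-exos) and 832002 (3m-serum-exos) miRNA reads, so that 1 read equalled 14.01, 4.71, 1.28 and 1.20 CPM (the read count divided by the sum of miRNA reads of its library, scaled to counts per 10⁶). The total behind the RPM deposited by the authors was larger. Of it, the miRNA reads made up 0.411% in 18m-SI-Exos, 1.14% in 3m-SI-Exos, 5.31% in 18m-serum-exos and 5.89% in 3m-serum-exos. Of the 8 epithelial marker miRNAs, 7 had reads in 18m-SI-Exos and 8 in 3m-SI-Exos, and miR-200b-3p was the marker at 0 in 18m-SI-Exos. The most abundant epithelial markers were miR-429-3p, at 26866 CPM in 18m-SI-Exos against 137050 CPM in 3m-SI-Exos, and miR-192-5p, at 20350 CPM in 18m-SI-Exos against 77176 CPM in 3m-SI-Exos. Neural markers, of interest because the cluster is active in brain, gave 3 reads in 18m-SI-Exos and 17 in 3m-SI-Exos over 5 miRNAs.

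Together the 5 miRNAs were lower in the 18-month library of both sources relative to all miRNA reads, but this did not hold relative to every marker list. Relative to epithelial marker reads, the ratio at 18 months over 3 months was 1.18 in SI-Exos (1.02 to 1.37) and 0.954 in serum exosomes (0.847 to 1.07). Without the marker miR-192-5p it was 1.12 in SI-Exos (0.964 to 1.29) and 0.152 in serum exosomes (0.132 to 0.175). The 5 miRNAs held 221 of the reads in 18m-SI-Exos, against 1795 in 3m-SI-Exos, or 3097 CPM against 8458 CPM. The summed level was 2.73-fold lower at 18 months (2.37 to 3.15). In serum exosomes they held 417 reads at 18 months against 1193 at 3 months, or 536 CPM against 1434 CPM. This was 2.68-fold lower at 18 months (2.39 to 3.00). A miRNA was called different when 1 library of the pair held 10 reads or more, the ratio reached 2-fold (or a library had no read at all) and the interval left out 1. By this rule 3 of the 5 fell, 1 rose and 1 was not called in SI-Exos, where 32.7% of the 214 miRNAs measured were called lower and 29.4% higher at 18 months. Of the called, miR-379-5p (8 reads against 302) and miR-154-5p (2 against 27) passed the 10-read limit only through 3m-SI-Exos. miR-382-5p (21 reads against 0) passed it only through 18m-SI-Exos, so for each the filter itself favoured the direction called. In serum exosomes 4 of the 5 fell and none rose, where 18.3% of the 251 measured were called lower and 25.9% higher.

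**Figure D1:**
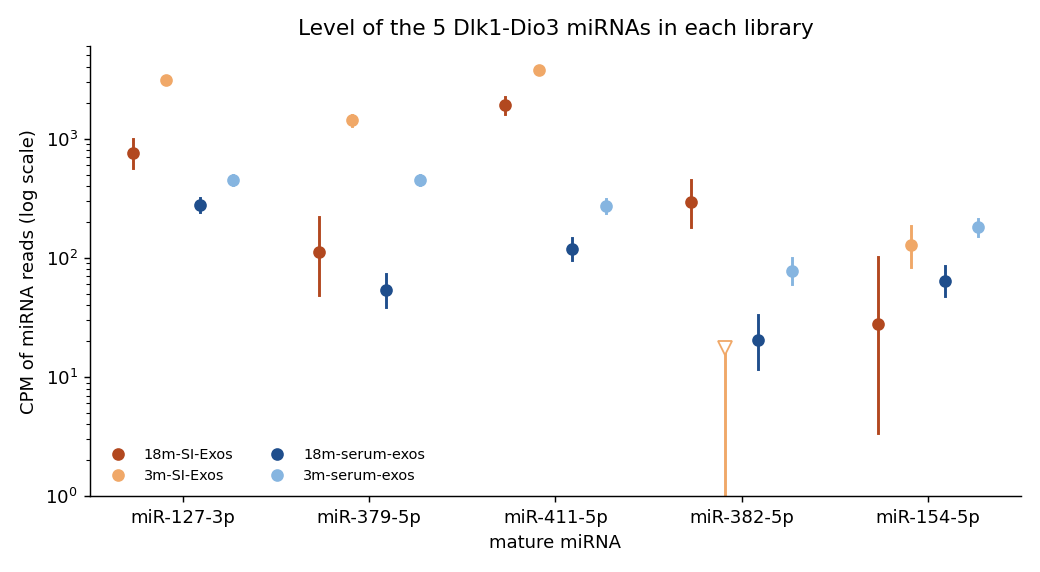
CPM of miRNA reads (log scale) of the 5 miRNAs in the 4 libraries. Points are single libraries, lines are exact 95% counting intervals, and the open triangle is the exact upper limit of 17.4 CPM for miR-382-5p, which had 0 reads in 3m-SI-Exos. Apart from miR-382-5p in SI-Exos, each 18-month point lies below the 3-month point of the same source.

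mmu-miR-379-5p gives its name to the miR-379/miR-410 cluster and was taken forward by the study out of these libraries, so its direction here is not independent evidence. Separately, the paper reports replicated RT-qPCR in which this miRNA was significantly higher in young than in aged mice. That held in SI-Exos, in subcutaneous fat and in the stromal vascular fraction of that fat. In the libraries used here, miR-379-5p had 8 reads (112 CPM) in 18m-SI-Exos against 302 reads (1423 CPM) in 3m-SI-Exos. In serum it had 42 reads (54.0 CPM) in 18m-serum-exos against 374 reads (450 CPM) in 3m-serum-exos. Both 18-month libraries were below both 3-month libraries. The level was 12.7-fold lower at 18 months in SI-Exos (6.36 to 29.7) and 8.33-fold lower in serum exosomes (6.04 to 11.7). Among all measured miRNAs, 11.2% had a lower log2 ratio in SI-Exos and 3.19% in serum exosomes. Its rank by reads was 144 in 18m-SI-Exos against 54 in 3m-SI-Exos, and 142 in 18m-serum-exos against 66 in 3m-serum-exos. The opposite arm of the hairpin, miR-379-3p, had 0, 4, 1 and 0 reads in 18m-SI-Exos, 3m-SI-Exos, 18m-serum-exos and 3m-serum-exos. The 5p arm thus held 100% (63.1 to 100), 98.7% (96.7 to 99.6), 97.7% (87.7 to 99.9) and 100% (99.0 to 100) of the reads of the hairpin in these libraries.

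mmu-miR-411-5p, the neighbour of miR-379-5p in position and in seed, was the most abundant of the 5 in both SI-Exos libraries. It had 136 reads (1906 CPM) in 18m-SI-Exos against 807 reads (3803 CPM) in 3m-SI-Exos, and 93 reads (120 CPM) in 18m-serum-exos against 228 reads (274 CPM) in 3m-serum-exos. Its SI-Exos ratio of 0.501 at 18 months over 3 months (0.415 to 0.602) stood at the 2-fold limit and was not called. TMM factors (0.476), DESeq2 size factors (0.351) and the authors' RPM (0.181) placed it past the limit. In serum exosomes it fell 2.29-fold at 18 months (1.79 to 2.95).

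mmu-miR-127-3p, the miRNA antisense to Rtl1, was the most abundant of the 5 in both serum libraries. Its reads were 54 (757 CPM) in 18m-SI-Exos against 659 (3105 CPM) in 3m-SI-Exos, and 216 (278 CPM) in 18m-serum-exos against 376 (452 CPM) in 3m-serum-exos. It fell 4.10-fold at 18 months in SI-Exos (3.11 to 5.52). The serum ratio of 0.614 (0.517 to 0.728) was not called, although its interval lay below 1. Without the 5 most abundant miRNAs in the totals it was 0.468 and passed the limit. Relative to epithelial marker reads neither source was called, with ratios of 0.788 in SI-Exos (0.585 to 1.04) and 1.57 in serum exosomes (1.32 to 1.86). The serum value rested on the marker miR-192-5p. Without that marker the ratio was 0.744 in SI-Exos (0.552 to 0.985) and 0.249 in serum exosomes (0.206 to 0.302).

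mmu-miR-154-5p, from the Mirg intron, was the least abundant of the 5 in 18m-SI-Exos. It had 2 reads (28.0 CPM) in 18m-SI-Exos against 27 reads (127 CPM) in 3m-SI-Exos, and 50 reads (64.2 CPM) in 18m-serum-exos against 150 reads (180 CPM) in 3m-serum-exos. Its ratio at 18 months over 3 months was 0.220 in SI-Exos, with a wide interval from the few reads (0.0254 to 0.877). In serum exosomes it fell 2.81-fold (2.03 to 3.95).

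mmu-miR-382-5p, from the Mirg exon, differed in direction between the sources. It had 21 reads (294 CPM) in 18m-SI-Exos and 0 reads in 3m-SI-Exos, for which the exact upper limit was 17.4 CPM. It was at least 15.5-fold higher at 18 months by the exact interval, and 20.8-fold higher with the 0 set to 3 reads. That second value was 14.6 with DESeq2 size factors and 7.50 with the authors' RPM. At the 18-month level, 62.5 reads would have stood in the deeper 3m-SI-Exos library. In serum exosomes it had 16 reads (20.6 CPM) at 18 months against 65 reads (78.1 CPM) at 3 months, 3.80-fold lower (2.17 to 7.04). The difference in direction between the sources was not tested, each group being 1 library.

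**Figure D2:**
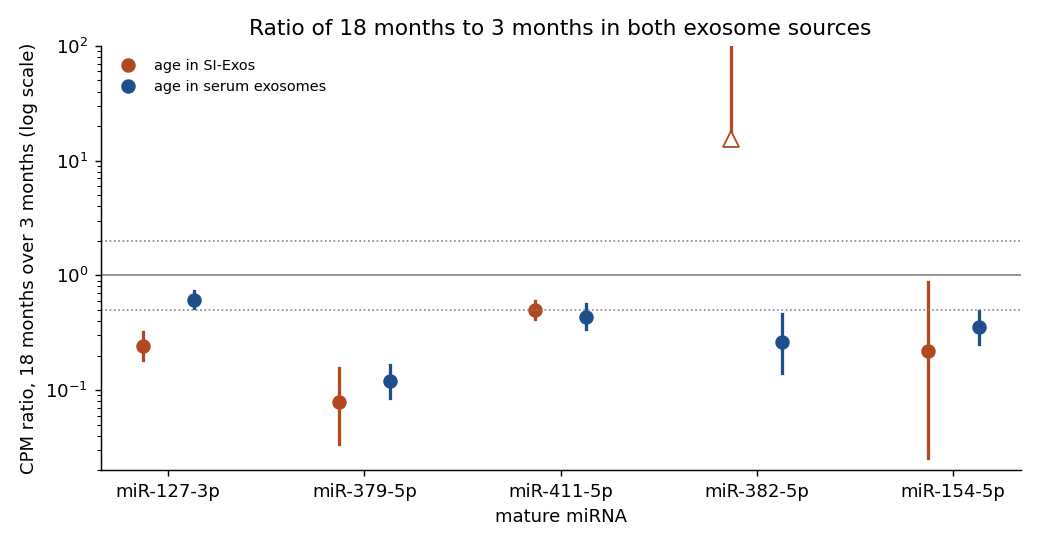
CPM at 18 months over CPM at 3 months (log scale) for the 5 miRNAs in SI-Exos and serum exosomes. Lines are exact 95% counting intervals, dotted lines mark a 2-fold difference, and the open triangle is the exact lower limit of 15.5 for miR-382-5p in SI-Exos. The miR-379-5p ratios (0.0788 in SI-Exos and 0.120 in serum exosomes) are the lowest of the 5 in each source, and the miR-382-5p point in SI-Exos is the 1 above 1.

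The miRNAs were next compared with each other within a library, which does not depend on how the library is scaled. For each pair, the read ratio at 18 months was set over that at 3 months, a measure chosen after the levels had been seen. Intervals lay off 1 for 7 of the 10 pairs in SI-Exos and 7 of 10 in serum exosomes. Those in SI-Exos included every pair with miR-382-5p, which had 0 reads in 3m-SI-Exos. Each of those in serum exosomes involved miR-127-3p or miR-379-5p, so the pairs were not independent. The share over all pairs of miRNAs was not computed, so these counts are not a result particular to the cluster. The adjacent miR-379-5p and miR-411-5p differed in both sources. Relative to miR-411-5p, miR-379-5p was 6.36-fold lower at 18 months in SI-Exos (3.08 to 15.2) and 3.63-fold lower in serum exosomes (2.40 to 5.56). The pair of miR-127-3p and miR-411-5p went in opposite directions in the sources. The reads of miR-127-3p per read of miR-411-5p were 0.486 times as high at 18 months in SI-Exos (0.342 to 0.684) and 1.41 times as high in serum exosomes (1.04 to 1.91). Per miR-379-5p read, miR-127-3p was 3.09-fold higher at 18 months in SI-Exos (1.44 to 7.62) and 5.11-fold higher in serum exosomes (3.54 to 7.51). The pairs of miR-154-5p with miR-127-3p, miR-379-5p and miR-411-5p in SI-Exos had intervals that held 1, resting on the 2 reads of miR-154-5p at 18 months.

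As shares of their summed reads, the 5 differed both with age and with source. The shares of a library are parts of the same whole, so they cannot change independently of each other. The share of miR-379-5p was 3.62% (1.58 to 7.01) in 18m-SI-Exos against 16.8% (15.1 to 18.6) in 3m-SI-Exos, and 10.1% (7.36 to 13.4) in 18m-serum-exos against 31.3% (28.7 to 34.1) in 3m-serum-exos. Neither pair of intervals overlapped. The share of miR-411-5p was 61.5% (54.8 to 68.0) in 18m-SI-Exos against 45.0% (42.6 to 47.3) in 3m-SI-Exos, and its shares of 22.3% (18.4 to 26.6) in 18m-serum-exos against 19.1% (16.9 to 21.5) in 3m-serum-exos overlapped. That of miR-127-3p was 24.4% (18.9 to 30.6) in 18m-SI-Exos against 36.7% (34.5 to 39.0) in 3m-SI-Exos, and 51.8% (46.9 to 56.7) in 18m-serum-exos against 31.5% (28.9 to 34.2) in 3m-serum-exos. It was thus lower at 18 months in SI-Exos and higher in serum exosomes. The share of miR-154-5p was 0.905% in 18m-SI-Exos and 1.5% in 3m-SI-Exos, and 12.0% in 18m-serum-exos and 12.6% in 3m-serum-exos. For miR-382-5p it was 9.50% (5.98 to 14.2) in 18m-SI-Exos and 0% in 3m-SI-Exos, where the exact upper limit was 0.205%, and was 3.84% in 18m-serum-exos and 5.45% in 3m-serum-exos with overlapping intervals.

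**Figure D3:**
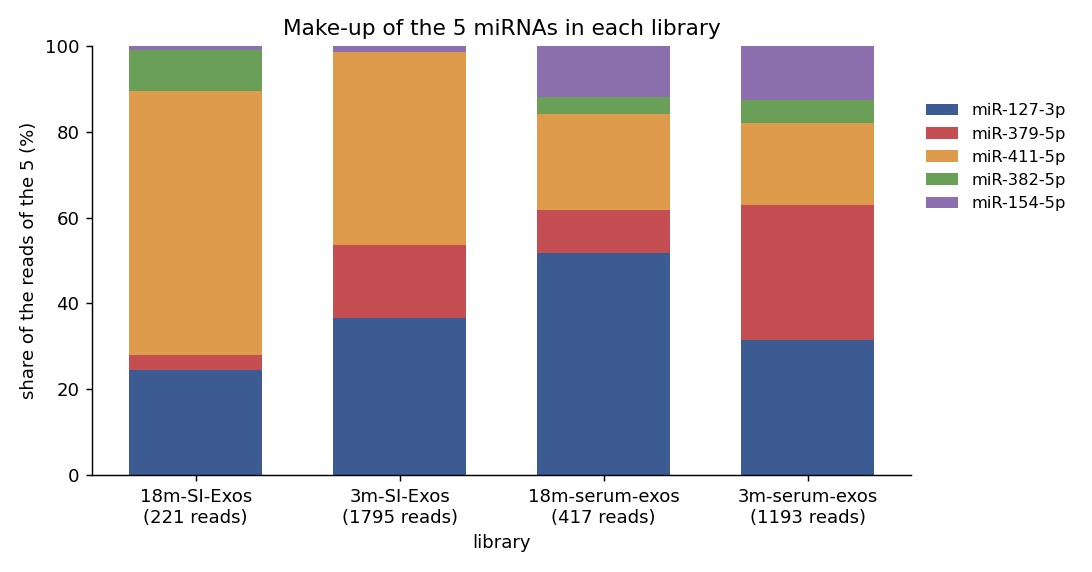
Share of each miRNA in the summed reads of the 5 (%), 1 bar per library, with the reads behind each bar under its name. The miR-379-5p segment is 3.62% in 18m-SI-Exos against 16.8% in 3m-SI-Exos and 10.1% in 18m-serum-exos against 31.3% in 3m-serum-exos.

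Set against serum exosomes of the same age, SI-Exos held more CPM of the 5 together, 5.78-fold at 18 months (4.89 to 6.82) and 5.90-fold at 3 months (5.48 to 6.35). At 18 months 3 of the 5 were called higher in SI-Exos and 0 lower, where 34.2% of the 231 miRNAs measured were called higher and 31.2% lower. At 3 months 3 were called higher and 1 lower, where 44.3% of the 235 measured were called higher and 28.1% lower. The difference for miR-411-5p was 15.9-fold at 18 months (12.2 to 21.0) and 13.9-fold at 3 months (12.0 to 16.1). For miR-127-3p it was 2.73-fold at 18 months (1.98 to 3.69) and 6.87-fold at 3 months (6.04 to 7.82). For miR-379-5p it was 3.17-fold at 3 months (2.71 to 3.69), and the ratio of 2.08 at 18 months, from 8 reads in SI-Exos, had an interval that held 1 (0.842 to 4.48). The miR-154-5p ratios of 0.436 at 18 months (0.0514 to 1.66) and 0.706 at 3 months (0.450 to 1.07) were not called. The miR-382-5p level was 14.3-fold higher in SI-Exos at 18 months (7.12 to 29.3) and at least 4.37-fold lower at 3 months by the exact interval (5.53-fold with 0 set to 3 reads).

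The difference between sources depended on the scaling, and calls and directions did not hold under all of them. With the authors' RPM, which divides by a total beyond miRNA reads, 0 of the 5 were higher and 3 lower in SI-Exos at 18 months, and 1 higher and 2 lower at 3 months. Under it miR-127-3p at 18 months (0.211) and miR-379-5p at 18 months (0.161) and 3 months (0.613) were lower in SI-Exos, and TMM factors placed miR-379-5p at 18 months at 0.924. With RPM, miR-411-5p was at 1.23 (0.941 to 1.62) at 18 months and 2.69 at 3 months, and miR-382-5p was at 1.11 (0.550 to 2.27) at 18 months. RPM multiplied every ratio between sources by 0.0773 at 18 months and 0.194 at 3 months. The summed level of the 5 given above thus holds for CPM alone. Within the 5, where scaling plays no part, miR-379-5p per miR-411-5p read was 7.62-fold lower in SI-Exos than in serum exosomes at 18 months (3.34 to 19.7) and 4.38-fold lower at 3 months (3.53 to 5.44). Conversely, miR-411-5p per miR-154-5p read was 36.2-fold higher in SI-Exos at 18 months (9.12 to 315) and 19.6-fold higher at 3 months (12.6 to 31.6).

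The rest of the cluster was sparse. The 5 took 93.6% of all reads of the Dlk1-Dio3 list in 18m-SI-Exos against 96.0% in 3m-SI-Exos, and 80.3% in 18m-serum-exos against 82.8% in 3m-serum-exos. Beside them, 19 list miRNAs were counted in SI-Exos and 2 of these reached 10 reads. Both were called lower at 18 months, where 32.7% of the 214 miRNAs measured were called lower and 29.4% higher. Both passed the 10-read limit only through 3m-SI-Exos, the deeper library, so the filter itself favoured this direction. miR-341-3p had 0 reads in 18m-SI-Exos against 24 in 3m-SI-Exos, at least 2.02-fold lower by the exact interval (2.69-fold with 0 set to 3 reads). miR-369-5p had 0 reads in 18m-SI-Exos against 14 in 3m-SI-Exos, at least 1.12-fold lower (1.57-fold with 0 set to 3 reads). After the 5, the list miRNA with most reads in 18m-SI-Exos was miR-377-3p with 3, followed by miR-381-3p, miR-409-3p and miR-487b-3p with 2 each. In 3m-SI-Exos miR-540-3p came after miR-341-3p and miR-369-5p with 9 reads.

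In serum exosomes 39 list miRNAs beside the 5 were counted and 9 reached 10 reads, of which 3 were called lower at 18 months and 0 higher. Over the 251 miRNAs measured, 18.3% were called lower and 25.9% higher. The 3 called lower passed the 10-read limit only through 3m-serum-exos, so the filter itself favoured this direction. miR-434-3p, whose hairpin also lies opposite Rtl1, had 5 reads in 18m-serum-exos against 36 in 3m-serum-exos, 6.73-fold lower (2.63 to 22.0). miR-376c-3p had 5 reads against 16, 2.99-fold lower (1.05 to 10.4). miR-134-5p, known in rat neurons to restrain dendritic spine growth, had 0 reads in 18m-serum-exos against 13 in 3m-serum-exos, at least 2.85-fold lower by the exact interval (4.05-fold with 0 set to 3 reads). Among the most abundant serum members, miR-341-3p had 25 reads in 18m-serum-exos against 39 in 3m-serum-exos (ratio 0.685, 0.397 to 1.16), and miR-410-3p had 20 reads against 17 (1.26, 0.626 to 2.56). miR-369-5p had 9 reads in 18m-serum-exos against 21 in 3m-serum-exos, and miR-381-3p had 10 against 11. Over the measured list, the median log2 ratio at 18 months over 3 months was -2.02 in SI-Exos (7 miRNAs, -1.43 with zeros set to 3 reads) and -1.29 in serum exosomes (14 miRNAs, -1.34). Over all measured miRNAs it was -0.45 in SI-Exos and 0.38 in serum exosomes. The list medians include the miRNAs that passed the 10-read limit only through the 3-month library, and their difference from all miRNAs was not tested.

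**Figure D4:**
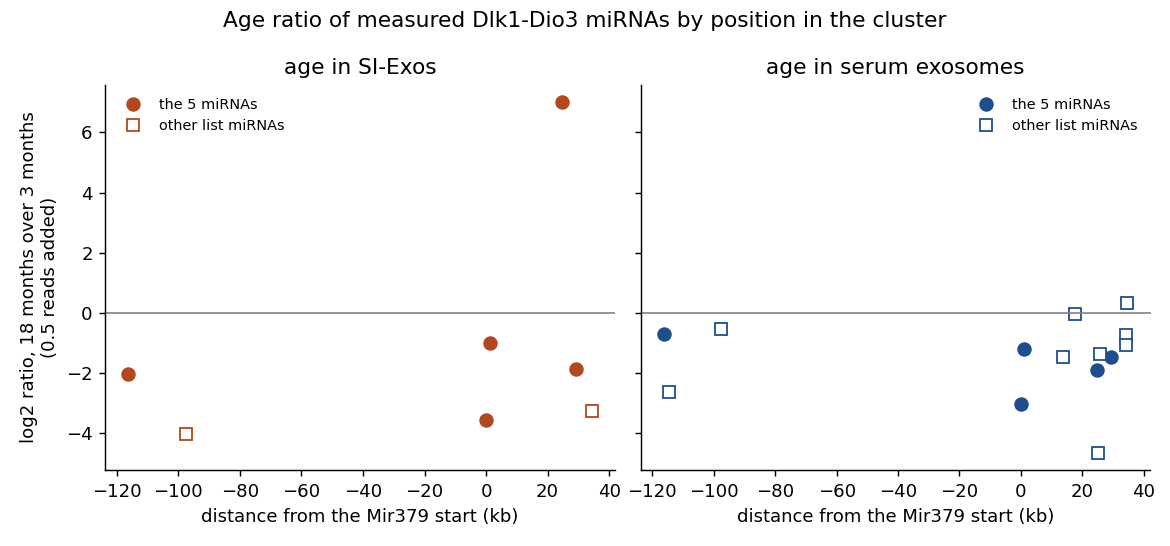
Log2 ratio of 18 months to 3 months (0.5 reads added) of list miRNAs with at least 10 reads in 1 library, against the distance of the hairpin from the Mir379 start (kb). Filled circles are the 5 miRNAs and open squares the others: miR-382-5p in SI-Exos (21 reads against 0) stands above 0 and the other 6 SI-Exos points below it, and 13 of the 14 serum points lie below 0.

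The miRNA with the pattern most like miR-379-5p over the 4 libraries was sought among 156 miRNAs with at least 10 reads in each source, by the Euclidean distance of centred log2 CPM. The nearest was miR-203b-5p at a distance of 0.53 log2 units, with 0, 18, 3 and 18 reads in 18m-SI-Exos, 3m-SI-Exos, 18m-serum-exos and 3m-serum-exos. A predicted miRNA (1.5), miR-192-5p (1.67), miR-369-5p (1.78) and miR-127-3p (2.12) followed, so that 2 of the 5 nearest belonged to the Dlk1-Dio3 list. The list miRNAs among the 156 were miR-379-5p itself, miR-127-3p, miR-411-5p, miR-382-5p, miR-154-5p, miR-341-3p and miR-369-5p. The 5 nearest of miR-127-3p, of miR-411-5p, of miR-382-5p and of miR-154-5p included no list miRNA, so this likeness was not shared across the cluster. miR-203b-5p, the predicted miRNA and miR-369-5p had 0 reads in 18m-SI-Exos, where 0.5 added reads set their level. With 4 libraries this likeness is a description alone. Its neighbour miR-411-5p stood at rank 38 (3.36), miR-154-5p at rank 13 (2.64) and miR-382-5p at rank 143 (7.79).

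**Figure D5:**
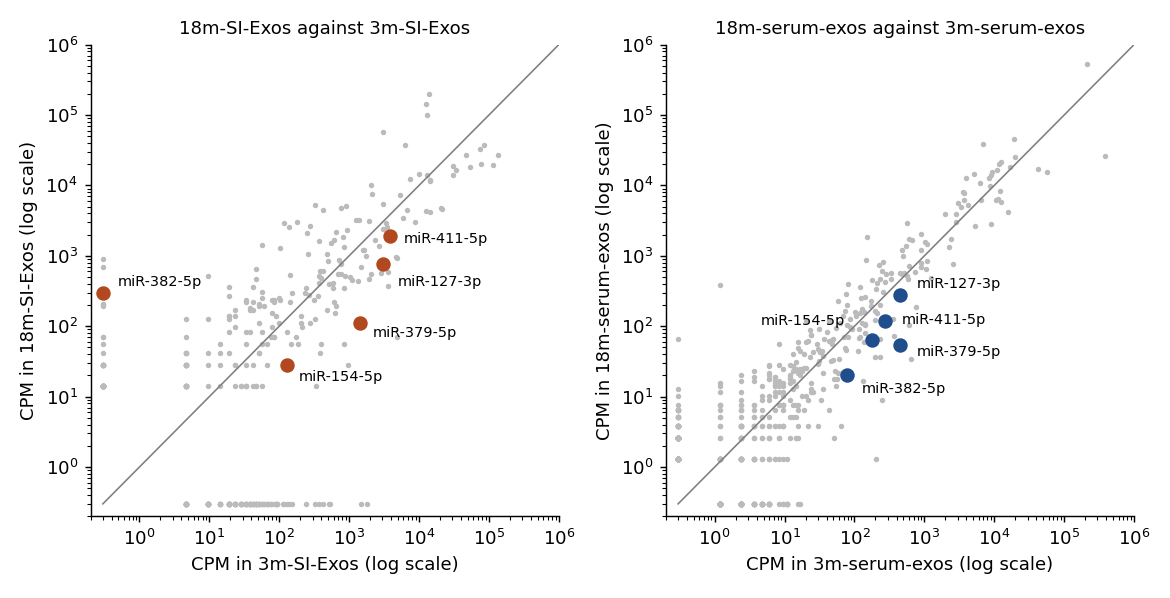
CPM at 18 months against CPM at 3 months (log scales) for every miRNA of the SI-Exos table (left) and the serum table (right), with libraries at 0 reads drawn at 0.3 CPM. Coloured points are the 5 miRNAs and the line marks equal CPM: all 5 lie below it in serum exosomes, and miR-382-5p alone lies above it in SI-Exos.

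Levels of marker lists for other cell types also differed between the ages. Epithelial markers (8 of 8 with reads in both serum libraries) summed to 82603 CPM in 18m-SI-Exos against 267248 CPM in 3m-SI-Exos, and to 6603 CPM in 18m-serum-exos against 16850 CPM in 3m-serum-exos. Of the markers, miR-141-3p (883 against 712 CPM) and miR-215-5p (14225 against 13100 CPM) were not lower in 18m-SI-Exos. Opposite arms of marker hairpins, outside the list, went both ways. In 18m-SI-Exos against 3m-SI-Exos, miR-194-1-3p was at 141900 against 12558 CPM and miR-215-3p at 98706 against 13006 CPM. By contrast, miR-200a-5p was at 350 against 839 CPM. The serum difference rested on miR-192-5p, at 4132 CPM in 18m-serum-exos against 15846 CPM in 3m-serum-exos. The other epithelial markers summed to 2471 CPM in 18m-serum-exos against 1004 CPM in 3m-serum-exos. Smooth muscle and mesenchyme markers (4 of 5 with reads in SI-Exos, miR-199a-3p at 0, and 5 of 5 in serum) summed to 35752 CPM in 18m-SI-Exos against 75424 CPM in 3m-SI-Exos, and to 17517 CPM in 18m-serum-exos against 42443 CPM in 3m-serum-exos. Nearly all of these reads were miR-143-3p, and the others summed to 3195 CPM in 18m-SI-Exos against 1253 CPM in 3m-SI-Exos, and to 641 CPM in 18m-serum-exos against 605 CPM in 3m-serum-exos. Striated muscle markers (3 of 3 with reads) were at 1514 CPM in 18m-SI-Exos against 4802 CPM in 3m-SI-Exos, and at 7273 CPM in 18m-serum-exos against 6969 CPM in 3m-serum-exos. The SI-Exos difference rested on miR-1a-3p, at 967 CPM in 18m-SI-Exos against 4722 CPM in 3m-SI-Exos. The other markers of this list, miR-133a-3p (364 against 42.4 CPM) and miR-206-3p (182 against 37.7 CPM), were higher in 18m-SI-Exos. Red blood cell markers (4 of 4 with reads, and 3 of 4 in 3m-SI-Exos, where miR-144-5p was at 0) were higher at 18 months, at 37742 CPM against 6305 CPM in SI-Exos and 538335 CPM against 219662 CPM in serum exosomes. Endothelial markers (2 of 2 with reads) were at 12571 CPM in 18m-SI-Exos against 7502 CPM in 3m-SI-Exos, and at 25377 CPM in 18m-serum-exos against 19764 CPM in 3m-serum-exos. Neural markers (5 of 5 with reads in serum) were at 753 CPM in 18m-serum-exos against 630 CPM in 3m-serum-exos. The liver miRNA miR-122-5p was at 350 CPM in 18m-SI-Exos against 245 CPM in 3m-SI-Exos, and at 26509 CPM in 18m-serum-exos against 384405 CPM in 3m-serum-exos.

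Read against the epithelial list instead of the library total, a choice made after seeing the data, the sum of the 5 was 37.5 per 1000 marker reads in 18m-SI-Exos against 31.7 in 3m-SI-Exos, and 81.1 in 18m-serum-exos against 85.1 in 3m-serum-exos. The ratios at 18 months over 3 months were 1.18 in SI-Exos (1.02 to 1.37) and 0.954 in serum exosomes (0.847 to 1.07), where CPM had given 0.366 and 0.374. Against smooth muscle and mesenchyme markers they were 0.773 in SI-Exos (0.665 to 0.895) and 0.905 in serum exosomes (0.807 to 1.01). With miR-192-5p left out of the epithelial list, they were 1.12 in SI-Exos (0.964 to 1.29) and 0.152 in serum exosomes (0.132 to 0.175). With miR-143-3p left out of the smooth muscle and mesenchyme list, they were 0.144 in SI-Exos (0.114 to 0.181) and 0.352 in serum exosomes (0.297 to 0.418). The serum values near 1 thus rested on 1 marker of each list. In SI-Exos the epithelial marker with most reads was miR-429-3p, with 1917 of 5894 list reads in 18m-SI-Exos and 29084 of 56714 in 3m-SI-Exos. No ratio was computed without it, so whether the SI-Exos value of 1.18 rests on miR-429-3p was not tested. Against endothelial markers the ratios of the sum were 0.219 in SI-Exos (0.185 to 0.258) and 0.291 in serum exosomes (0.259 to 0.326), and against red blood cell markers 0.0612 in SI-Exos and 0.152 in serum exosomes. For miR-379-5p the ratio stayed below 1 against all of these lists, and was 3.92-fold lower at 18 months against epithelial markers in SI-Exos (1.96 to 9.17) and 3.26-fold lower in serum exosomes (2.36 to 4.61). For miR-411-5p it was 1.62 in SI-Exos (1.34 to 1.95) and 1.11 in serum exosomes (0.863 to 1.43) against the epithelial list. With miR-192-5p left out, the miR-411-5p ratio was 1.53 in SI-Exos (1.26 to 1.84) and 0.177 in serum exosomes (0.136 to 0.230). Against the epithelial list, and likewise against the smooth muscle and mesenchyme list, 5 of the 8 age calls were lost: miR-127-3p and miR-154-5p in SI-Exos, and miR-411-5p, miR-382-5p and miR-154-5p in serum exosomes. Without miR-192-5p 2 were lost, those of miR-127-3p and miR-154-5p in SI-Exos, and without miR-143-3p 0 were lost. The part of these cell types, or of RNA amount per vesicle, in the age difference of the 5 was not tested.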

How the data were processed

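Small RNA was sequenced from exosomes of small intestinal epithelium and serum, isolated by ultracentrifugation, at 18 and 3 months (1 library each, 4 in all). Groups were taken from the submitters' labels. The labels name an MGI kit and a DNBSEQ sequencer, whereas the study's methods name a VAHTS kit and a HiSeq platform. Read counts of mature miRNAs were deposited by the authors. Bowtie2 2.2.9 and the build GRCm38 are named in the submitters' processing notes. RPM, also deposited by the authors, divide by a total that exceeds the miRNA reads. Their columns of fold changes, p-values and FDR from a test between the 2 libraries of a pair were not used.

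CPM (reads over the column sum) and ratios with exact Clopper-Pearson 95% intervals from the conditional binomial of 2 counts were computed. Measured miRNAs had 10 reads or more in a library of the pair. Calls needed a 2-fold ratio, or no read in one library, and an interval that left out 1. For a library at 0 reads, bounds are the exact limits, with the ratio at 0 set to 3 reads beside them, and log2 ratios had 0.5 reads added. No p-value was made, since each group has 1 library. Pair ratios are conditional odds ratios. The procedure was tested on simulated data.

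The Dlk1-Dio3 list joined hairpins annotated between both genes (RefSeq, GRCm38.p6, and GENCODE for overlapping genes) with hairpins named by hand. Named miRNAs were the 5, their listed opposite arms, list miRNAs called in either source, the 3 most abundant list miRNAs of each library, the 5 nearest in pattern to miR-379-5p and the 2 most abundant epithelial markers. The opposite arms of the other 4 hairpins were not analysed here. The members and lists were chosen with earlier results of these data known. Alternatives were TMM factors (edgeR 4.0.16), DESeq2 1.42.0 size factors, the authors' RPM, totals without the 5 most abundant miRNAs, known miRNAs alone, at least 1 or 50 reads, ratios of 1.5 or 4, no interval rule, 2 added reads and shares over the whole list. Scaling of source ratios, scaling to marker reads and pair ratios were chosen after seeing the data. Software was R 4.3.3 and Python 3.11.15 (scipy 1.17.1, numpy 2.4.6, pandas 2.3.3, matplotlib 3.10.9).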

Additional observations from a re-analysis of the deposited data

Results flagged for a closer look

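The age ratio of miR-382-5p lay on opposite sides of 1 in the 2 sources. At 18 months over 3 months it was 20.8 in SI-Exos with 0 set to 3 reads (21 reads against 0, exact lower limit 15.5) and 0.263 in serum exosomes (16 reads against 65). The difference between the sources was not tested, since each group is 1 library.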

How the results depend on the processing

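Of 50 recomputed age ratios of the 5 miRNAs under other scalings, 46 kept direction and side of the limit and 4 became called (miR-411-5p in SI-Exos under 3 scalings and miR-127-3p in serum exosomes under 1). At 50 reads or more, 3 of the 5 and 3 of the list were measured in SI-Exos, and 2 were called lower in each. Of all 119 miRNAs then measured, 48 were called lower and 30 higher. In serum exosomes 4 of the 5 measured list miRNAs were called lower, against 28 lower and 39 higher of all 147. At a 4-fold ratio, 1 of the 5 and 3 of the 14 measured list miRNAs were called lower in serum exosomes, against 22 lower and 19 higher of all 251. With no interval rule, 4 of the 5 were called higher and 1 lower in SI-Exos than in serum exosomes at 18 months, against 85 higher and 95 lower of all 231. Scaling to epithelial and to smooth muscle and mesenchyme marker reads turned the age ratios of miR-411-5p in SI-Exos (1.62 and 1.06), of miR-127-3p in serum exosomes (1.57 and 1.49) and of miR-411-5p in serum exosomes (1.11 and 1.06), and 5 of the 8 called age ratios were no longer called under each list. Without miR-192-5p in the epithelial list 2 of 8 were lost and miR-411-5p in SI-Exos was at 1.53, and without miR-143-3p in the other list 0 were lost. The serum ratios did not turn without miR-192-5p, at 0.249 for miR-127-3p and 0.177 for miR-411-5p. Without miR-143-3p the serum ratios were 0.579 for miR-127-3p and 0.411 for miR-411-5p, and miR-411-5p in SI-Exos was at 0.197. Between sources, 4 of 50 ratios turned: miR-127-3p at 18 months (0.211 with RPM), miR-379-5p at 18 months (0.924 with TMM and 0.161 with RPM) and at 3 months (0.613 with RPM). Log2 age ratios of all miRNAs shifted in SI-Exos by -0.52 with DESeq2, -1.47 with RPM, 0.15 without the 5 most abundant and 0.13 with known miRNAs alone, and in serum exosomes by -0.19 with TMM, -0.15 with RPM and -0.39 without the 5 most abundant. Between sources they shifted by -3.69 at 18 months and -2.37 at 3 months with RPM, and by -1.17 and -1.15 with TMM. Calls higher and lower over all miRNAs were 63 and 70 in SI-Exos by age, against 50 and 100 with DESeq2 and 31 and 131 with RPM. In serum exosomes they were 65 and 46, against 51 and 52 with TMM and 38 and 67 without the 5 most abundant. Between sources at 18 months they were 79 and 72, against 63 and 107 with TMM, 67 and 98 with DESeq2 and 41 and 173 with RPM. At 3 months they were 104 and 66, against 79 and 105 with TMM, 82 and 99 with DESeq2, 50 and 133 with RPM and 82 and 97 without the 5 most abundant. The causes were not tested. The depth of 18m-SI-Exos limits miR-379-5p (8 reads) and miR-154-5p (2 reads). No paired analysis was possible because each group has 1 library.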

Other observations

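In 18m-SI-Exos, 5 miRNAs had at least 20 reads and 0 reads in 3m-SI-Exos, a set picked after the values were seen. miR-382-5p was the 1 member of the Dlk1-Dio3 list among them. The others were miR-1224-5p (64 reads), a predicted miRNA (50 reads), miR-1943-5p (23 reads) and miR-30e-5p (23 reads). Of these, miR-30e-5p was also counted in both serum libraries, with 18 reads in 18m-serum-exos and 15 in 3m-serum-exos.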
